A study of Mus musculus with 28 samples.

Results

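The genes described here are the 8 central iron-handling genes Tfrc, Slc11a2, Fth1, Ftl1, Ncoa4, Slc40a1, Ireb2 and Aco1, chosen by symbol out of 55291 genes in the tables. All 8 were found in each of the 3 experiments, and each is followed over the 8 labelled groups and 28 mouse libraries of the study. Tfrc encodes the receptor that takes up transferrin-bound iron, and Slc11a2 encodes the transporter DMT1 that moves iron out of the endosome. Fth1 and Ftl1 encode the heavy and light chains of ferritin, the shell that stores iron. Ncoa4 encodes the receptor that hands ferritin to autophagy, and Slc40a1 encodes ferroportin, the iron exporter of the cell surface. Ireb2 and Aco1 encode the iron regulatory proteins IRP2 and IRP1.

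In the first culture experiment, LLC cells, a mouse lung carcinoma line labelled wild type, received 200 nM BAY-876 or vehicle for 36 h (n = 3 each). BAY-876 is a compound that blocks glucose uptake through the transporter GLUT1. In the second, 4 groups of 3 libraries were labelled BAY-876 with TNF, BAY-876, TNF and control at 32 h. The protocol gave 200 nM of the inhibitor or none for 24 h and then 20 ng/ml TNF, an inflammatory cytokine, or none for 32 h, and does not say whether the inhibitor stayed on. Of the 3 libraries titled BAY-876 with TNF, 2 carry another compound number in their treatment label and were grouped by title. On day 16, OT1 T cells (n = 5), CD8 T cells whose transgenic receptor binds a peptide of ovalbumin, and tumour cells (n = 5) were sorted from subcutaneous tumours of LLC cells carrying OVA and NGFR. Their hosts were Rag1 ko mice, which lack T and B cells but keep myeloid and erythroid cells, and they received activated OT1 cells on day 9. All culture groups come from 1 cell line, and the labels do not say that replicates were separate cultures or mice, so the p-values rest on a spread between samples that may be only technical. In bulk samples, fewer cells of a type and less RNA per cell cannot be told apart.

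Cells balance iron mainly after transcription. When iron is scarce, the iron regulatory proteins bind hairpins called iron-responsive elements: in the 5′ UTR of ferritin and ferroportin transcripts they block translation, and in the 3′ UTR of the transferrin receptor transcript they protect the transcript from decay. RNA levels therefore carry part of this control for Tfrc and little of it for ferritin, whose transcription is also raised by oxidative stress and inflammatory signals.

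The hairpins are shown because they are the sequences through which the iron regulatory proteins act on ferritin, ferroportin and transferrin receptor transcripts. A search of the UTRs annotated on GRCm38 looked for 5 bases, a bulged C, 5 bases, the loop CAGTGN with a last base other than G, and 5 bases that all pair with those before the loop, with at least 3 further pairs below the bulge. G-U pairs were allowed, and only the transcript strand was searched. The capitals mark the loop.
Fth1 5′ UTR, chr19:9982733-9982759, plus strand: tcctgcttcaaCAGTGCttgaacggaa
Ftl1 5′ UTR, chr7:45459780-45459806, minus strand: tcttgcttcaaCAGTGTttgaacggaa
Slc40a1 5′ UTR, chr1:45925466-45925492, minus strand: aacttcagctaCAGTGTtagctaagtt
Tfrc 3′ UTR, chr16:32631220-32631246, plus strand: attatcggaagCAGTGCcttccataat
Tfrc 3′ UTR, chr16:32631599-32631625, plus strand: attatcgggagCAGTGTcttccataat
Tfrc 3′ UTR, chr16:32631664-32631690, plus strand: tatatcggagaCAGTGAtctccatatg
Tfrc 3′ UTR, chr16:32631711-32631737, plus strand: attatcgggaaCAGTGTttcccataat

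The pattern lay in a 5′ UTR of 3 of the 8 members, against 8 of 20899 genes with an annotated 5′ UTR (0.0383%). It lay in a 3′ UTR of 1 member, Tfrc, against 24 of 21022 genes with an annotated 3′ UTR (0.114%). The members are among the genes counted. The elements of ferritin, ferroportin and transferrin receptor transcripts were known beforehand, so these shares are no test of enrichment. The flanks of the Fth1 and Ftl1 hairpins differ little, and the 4 hairpins of Tfrc share most of their stem. No match was found in the UTRs of Slc11a2 (chr15:100387898-100425072), Ireb2 (chr9:54863789-54912530), Aco1 (chr4:40143081-40198338) or Ncoa4 (chr14:32159865-32179855). The pattern asks for all 5 pairs next to the loop, so a hairpin with a mismatch or an extra base there would be missed. The lack of a match therefore does not show that these transcripts, Slc11a2 among them, have no iron-responsive element. Such a match is a description of the letters, and binding was not measured.

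Ferritin transcripts were among the most abundant of LLC cells. In 32 h control cells Fth1 averaged 4805 TPM and was the 17th most abundant of 19850 genes above 0, and Ftl1 averaged 1958 TPM and was 82nd. In the same cells Tfrc averaged 81.2 TPM, Ncoa4 46.4, Aco1 40.3, Ireb2 19.5 and Slc11a2 18.3 TPM. Slc40a1 reached at most 0.12 TPM in any 32 h library and at most 2.76 normalized counts at 36 h. It did not pass the filter of 1 TPM or 10 normalized counts in at least 3 libraries, so 7 of the 8 members were tested in culture and all 8 on day 16. TPM is scaled to 1000000 per library, so sequencing depth is unknown at 32 h and on day 16, while summed normalized counts at 36 h ran from 16848000 to 17134500. Of the T cell markers, Cd3e and Cd8a were at 0 in all 36 h libraries, and Cd3e, Cd2 and Cd5 in all 32 h libraries. The LLC markers summed to 1227 to 1864 TPM over the 32 h libraries.

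BAY-876 for 36 h lowered the transcripts of both uptake genes and raised those of both ferritin chains. The calls of the uptake genes were lost in some fits with a library left out, while those of the ferritin genes held. The receptor gene Tfrc had 1426, 1650 and 1460 normalized counts in BAY-876 cells, against 1942, 1920 and 1926 in vehicle cells. Slc11a2 had 395, 479 and 378 normalized counts in BAY-876 cells and 737, 560 and 592 in vehicle cells. In both genes every BAY-876 library lay below every vehicle library. Tfrc fell by 0.35 ± 0.07 on the log2 scale (SE; limma, adjusted p = 0.0118) and Slc11a2 fell by 0.59 ± 0.13 (adjusted p = 0.0196).

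The heavy chain gene Fth1 had 26569, 24653 and 23975 normalized counts in BAY-876 cells, against 20471, 20734 and 21169 in vehicle cells. The light chain gene Ftl1 had 19461, 15399 and 16462 normalized counts in BAY-876 cells, against 11788, 11726 and 11566 in vehicle cells. The groups did not overlap in either gene. Fth1 rose by a log2 fold change of 0.27 ± 0.05 (limma, adjusted p = 0.0075) and Ftl1 by 0.54 ± 0.08 (adjusted p = 0.0033), which is 1.46-fold.

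Ncoa4, whose product delivers ferritin for breakdown, had 1609, 1705 and 1702 normalized counts in BAY-876 cells and 2057, 1997 and 1944 in vehicle cells, again without overlap. It fell by 0.26 ± 0.06 on the log2 scale (limma, adjusted p = 0.0199). The sensor genes did not pass the test. Ireb2 averaged 1548 ± 135 normalized counts in BAY-876 cells and 1536 ± 58.8 in vehicle cells (SD, n = 3 each), and Aco1 averaged 1508 ± 51.7 in BAY-876 cells and 1470 ± 38.3 in vehicle cells. In all, 5 of the 7 tested members were called, against 14.4% of the 12937 genes tested, with 2 higher (7.34% of all genes were) and 3 lower (7.10%). Without 1 vehicle library, whichever of the 3 it was, 2 or 3 members remained called. Fth1 and Ftl1 were called in each of these fits, and Tfrc and Ncoa4 in none, with adjusted p of 0.0506 to 0.0531 for Tfrc and 0.0608 to 0.0834 for Ncoa4. Slc11a2 was not called without BAY-876 replicate 3, vehicle replicate 1 or vehicle replicate 3, with adjusted p of 0.0569 to 0.0664.

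**Figure D1:**
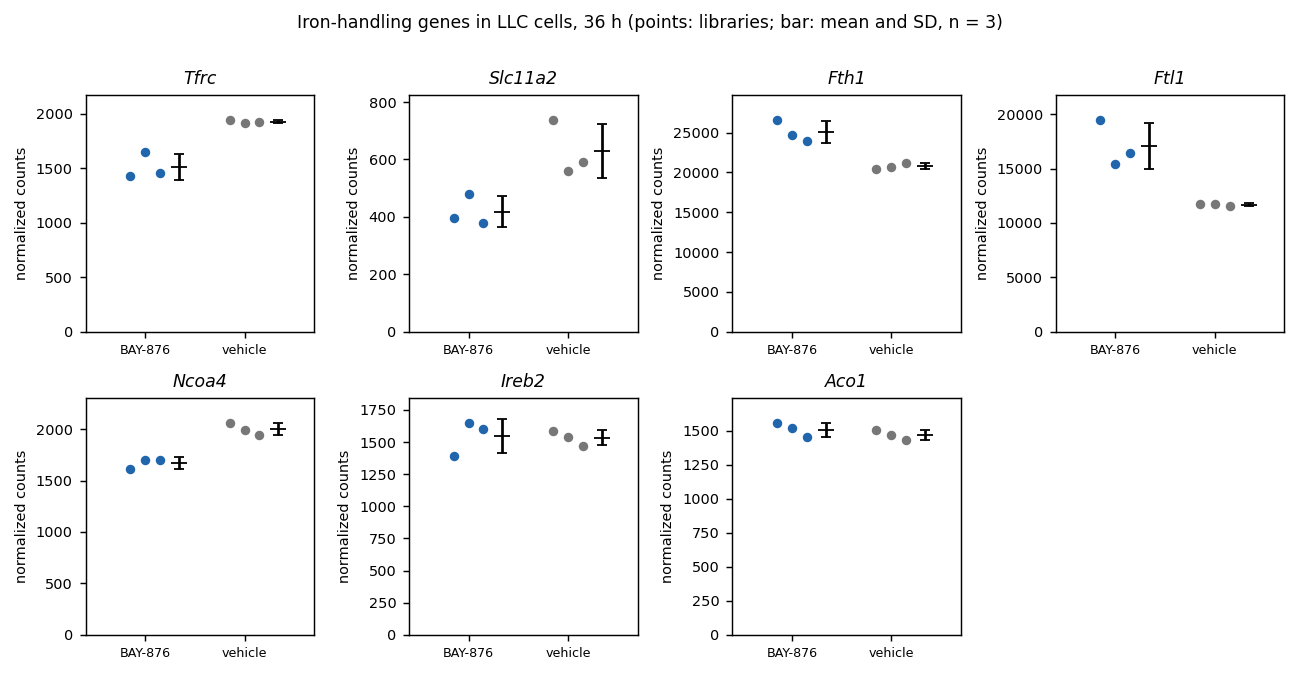
Normalized counts (vertical axes, from 0) of 7 iron-handling genes in LLC cells treated for 36 h with BAY-876 (left in each panel) or vehicle (right), 1 point per library with the mean and SD beside them (n = 3). The BAY-876 libraries lie below the vehicle libraries in Tfrc, Slc11a2 and Ncoa4 and above them in Fth1 and Ftl1.

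Of other iron genes at 36 h, the haem oxygenase gene Hmox1, whose product frees iron from haem, rose by a log2 fold change of 0.83 ± 0.07, to 1147 ± 30.3 normalized counts in BAY-876 cells against 646 ± 18.2 in vehicle cells. Steap3, the endosomal reductase that prepares transferrin-borne iron for transport, rose by 0.52 ± 0.06, and Slc25a28, a mitochondrial iron importer, by 0.36 ± 0.08. Over all genes, 7.34% rose and 7.10% fell at 36 h. These 2 were the ones called of 10 tested uptake genes, with a list median of 0.06 against 0.00 over all genes. Flvcr1, a haem exporter, fell by 0.42 ± 0.05 and was the 1 called gene of 3 tested in the export list (median 0.13). Of 17 tested haem genes 2 rose, Hmox1 and the haem synthesis gene Cpox (0.51 ± 0.10), and none fell. Among 24 genes of iron-sulphur cluster assembly 1 rose, the chaperone gene Hspa9 (0.31 ± 0.04), and 2 fell. Of the 6 tested genes of IRP control Cul1 fell by 0.18 ± 0.05, and none of the 7 tested storage genes was called (median 0.11). Fibroblast marker genes, which LLC cells also express, summed to 21353 to 23018 normalized counts in BAY-876 cells and 16638 to 17696 in vehicle cells. Their part in the result was not tested.

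At 32 h the largest difference from control among the tested members was the lower Tfrc of BAY-876 cells, which was not seen when BAY-876 with TNF was set against TNF. Tfrc had 72.2, 60.8 and 70.1 TPM in cells given BAY-876 with TNF, 47.2, 42.1 and 41.3 TPM with BAY-876, 64.6, 67.9 and 75.8 TPM with TNF, and 83.9, 79.0 and 80.7 TPM in control cells. The 3 BAY-876 libraries were the lowest of the 12 and the 3 control libraries the highest, while the combination and TNF overlapped. Against control, BAY-876 gave Tfrc a log2 fold change of -0.89 ± 0.08 (limma, adjusted p = 9.9e-06). Against TNF, BAY-876 with TNF gave -0.04 ± 0.08 (adjusted p = 0.757), and against BAY-876 alone it gave a rise of 0.62 ± 0.08 (adjusted p = 5.18e-05). The difference between the 2 responses to BAY-876, with TNF minus without, was 0.85 ± 0.11 and passed the test (adjusted p = 0.0038). TNF against control gave Tfrc -0.23 ± 0.08 (adjusted p = 0.0335). That call was lost without any 1 of the 3 control libraries, TNF replicate 1 or TNF replicate 2 (adjusted p 0.0515 to 0.122) and without the filter (0.0636).

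Slc11a2 moved the same way with BAY-876 and the opposite way with TNF. It had 21.9, 19.9 and 18.8 TPM with BAY-876 and TNF, 13.4, 15.4 and 13.0 TPM with BAY-876, 21.4, 27.7 and 24.7 TPM with TNF, and 18.7, 18.2 and 17.98 TPM in control cells. BAY-876 libraries were all below control libraries, and TNF libraries all above them. Against control the log2 fold change was -0.37 ± 0.10 with BAY-876 (limma, adjusted p = 0.00978) and 0.40 ± 0.10 with TNF (adjusted p = 0.00496). BAY-876 with TNF gave 0.51 ± 0.10 against BAY-876 alone (adjusted p = 0.00112). Against TNF it gave -0.27 ± 0.10 with overlapping libraries (adjusted p = 0.0490), and the call was lost with a replicate block (adjusted p = 0.0528), with quantile normalization (0.209), without the filter (0.0902) and in a fit of these 6 libraries alone (0.102). It was also lost without any 1 control library, BAY-876 replicate 1 or 3, TNF replicate 2 or 3, or combination replicate 2 or 3 (adjusted p 0.0544 to 0.188).

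Both ferritin genes fell with TNF and stood higher when BAY-876 had been given before it. Fth1 had 4337, 4382 and 4219 TPM with BAY-876 and TNF, 5053, 4959 and 5143 TPM with BAY-876, 3504, 3375 and 3492 TPM with TNF, and 4842, 4683 and 4890 TPM in control cells. The 4 groups formed 4 separate ranges, with TNF lowest and BAY-876 highest. TNF against control gave a log2 fold change of -0.47 ± 0.03 (limma, adjusted p = 7.48e-08), and BAY-876 with TNF gave 0.32 ± 0.03 against TNF (adjusted p = 6.53e-06) and -0.23 ± 0.03 against BAY-876 alone (adjusted p = 2.76e-05). BAY-876 against control gave 0.07 ± 0.03 (adjusted p = 0.0488), a call that was lost with quantile normalization (0.021, adjusted p = 0.685), without the filter (0.185) and in a fit of these 6 libraries alone (0.0550). It was also lost without BAY-876 replicate 1 or 3, combination replicate 1, or any 1 control or TNF library (adjusted p 0.0504 to 0.181).

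Ftl1 had 1370, 1291 and 1362 TPM with BAY-876 and TNF, 1966, 1950 and 2147 TPM with BAY-876, 1193, 1189 and 1165 TPM with TNF, and 1999, 1950 and 1924 TPM in control cells. The 6 libraries with TNF lay below the 6 without, and the combination lay above TNF alone. TNF against control gave -0.73 ± 0.04 on the log2 scale (limma, adjusted p = 4.73e-08), BAY-876 with TNF gave 0.18 ± 0.04 against TNF (adjusted p = 0.0034) and -0.59 ± 0.04 against BAY-876 (adjusted p = 2.44e-07), and BAY-876 against control gave 0.04 ± 0.04 (adjusted p = 0.387). The difference of the BAY-876 responses with and without TNF passed the test for Fth1 (0.25 ± 0.04, adjusted p = 0.00835; 0.0543 without the filter) and not for Ftl1 (0.14 ± 0.05, adjusted p = 0.258).

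Fth1 and Ftl1 together took 0.565% of all TPM with BAY-876 and TNF, 0.707% with BAY-876, 0.464% with TNF and 0.676% in control cells. The share of Fth1 in their sum was 76.3 ± 0.86% with BAY-876 and TNF, 71.4 ± 0.78% with BAY-876, 74.5 ± 0.53% with TNF and 71.0 ± 0.63% in control cells (SD, n = 3 each), so the light chain gene lost more than the heavy chain gene under TNF. The retrogene Ftl1-ps1 (chr13:74399694-74407346) shares sequence with Ftl1, so reads may be split between the pair. It averaged 91.0 TPM with BAY-876 and TNF, 134 TPM with BAY-876, 78.7 TPM with TNF and 129 TPM in control cells, and its log2 fold change with TNF was -0.70 ± 0.07, near that of Ftl1.

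Ncoa4 was higher in BAY-876 cells at 32 h, opposite to its change at 36 h. It had 41.3, 49.7 and 45.1 TPM with BAY-876 and TNF, 52.6, 57.8 and 54.6 TPM with BAY-876, 49.3, 46.8 and 44.9 TPM with TNF, and 47.2, 47.9 and 44.2 TPM in control cells. The BAY-876 libraries were the highest 3, and the other groups overlapped. BAY-876 against control gave 0.24 ± 0.07 on the log2 scale (limma, adjusted p = 0.0176; 0.0651 without control replicate 3 and 0.0677 without BAY-876 replicate 2), and BAY-876 with TNF gave -0.28 ± 0.07 against BAY-876 (adjusted p = 0.00652). TNF gave 0.02 ± 0.07 against control (adjusted p = 0.864) and the combination -0.05 ± 0.07 against TNF (adjusted p = 0.588).

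Of the sensors, Ireb2 had 17.8, 18.1 and 18.9 TPM with BAY-876 and TNF, 14.7, 14.4 and 15.4 TPM with BAY-876, 20.0, 18.8 and 17.3 TPM with TNF, and 20.3, 20.2 and 17.9 TPM in control cells. The BAY-876 libraries were the lowest 3, as in Tfrc, and the other groups overlapped. Ireb2 fell with BAY-876 against control, with a log2 fold change of -0.37 ± 0.07 (limma, adjusted p = 0.00182) and was higher by 0.28 ± 0.07 with the combination against BAY-876 (adjusted p = 0.00651). The interaction of 0.34 ± 0.10 did not pass the test (adjusted p = 0.132). Aco1 passed no test in culture: it averaged 42.3 ± 1.37 TPM with BAY-876 and TNF, 40.3 ± 0.57 TPM with BAY-876, 42.4 ± 0.86 TPM with TNF and 40.3 ± 3.0 TPM in control cells.

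**Figure D2:**
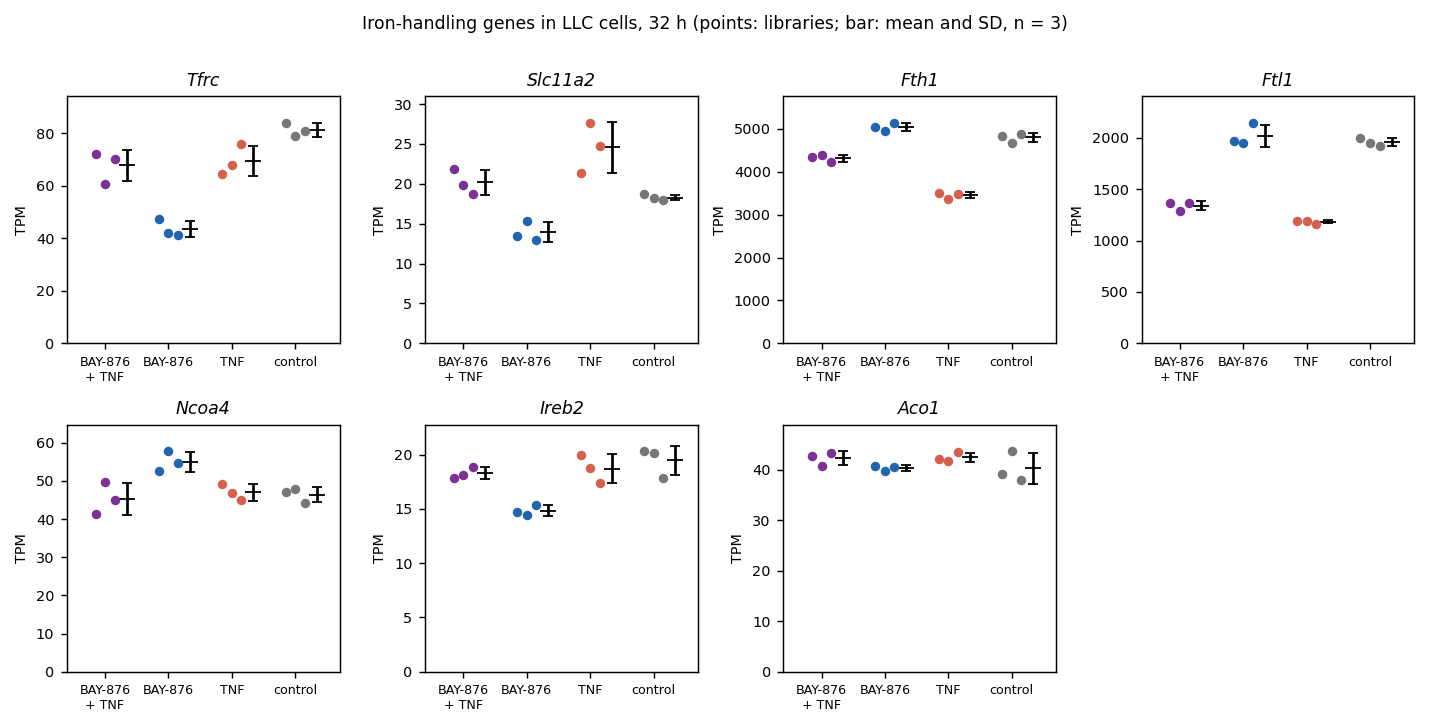
TPM (vertical axes, from 0) of 7 iron-handling genes in the 32 h experiment, with 1 point per library for BAY-876 with TNF, BAY-876, TNF and control, left to right, and the mean and SD beside them (n = 3). Tfrc and Ireb2 are lowest with BAY-876 alone, and Fth1 and Ftl1 are lowest with TNF alone.

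Against control, BAY-876 called 5 of 7 tested members, against 37.4% of 12780 genes, with 2 higher (background 11.5%) and 3 lower (25.8%), and TNF called 4, against 45.6%, with 1 higher (19.4%) and 3 lower (26.1%). BAY-876 with TNF against TNF called 3 members, against 34.0%, with 2 higher (10.4%) and 1 lower (23.6%), and against BAY-876 it called 6, against 44.2%, with 3 higher (19.3%) and 3 lower (24.8%). The interaction called 2 members, both higher, against 1.56% of genes, 0.736% higher and 0.822% lower. With so many genes called in the pairwise comparisons, the members' counts by themselves set them little apart. The comparisons share libraries and are no independent evidence of each other. Quantile normalization moved the split of calls over all genes with BAY-876 against control to 2238 higher and 2305 lower, against 1473 and 3303 without it. It moved that with TNF against control to 2877 and 2742, against 2485 and 3341, and that with the combination against BAY-876 to 2851 and 2690, against 2469 and 3175. For the combination against TNF it gave 1860 and 2048, against 1323 and 3018.

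In the authors' deposited table, the log2 fold changes of these 7 genes lay 0.06 to 0.11 above the values given here in all 4 pairwise comparisons. On that scale, the authors' deposited table has Ftl1 at 0.15 (adjusted p = 0.00426) and Fth1 at 0.17 (adjusted p = 6.63e-06) with BAY-876 against control, both past the threshold. The authors' deposited table has Tfrc at -0.80 in that comparison, at -0.15 with TNF against control (adjusted p = 0.0689) and at 0.05 with the combination against TNF (adjusted p = 0.715). Slc11a2 with the combination against TNF is at -0.20 in the authors' deposited table (adjusted p = 0.176), short of the threshold.

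**Figure D3:**
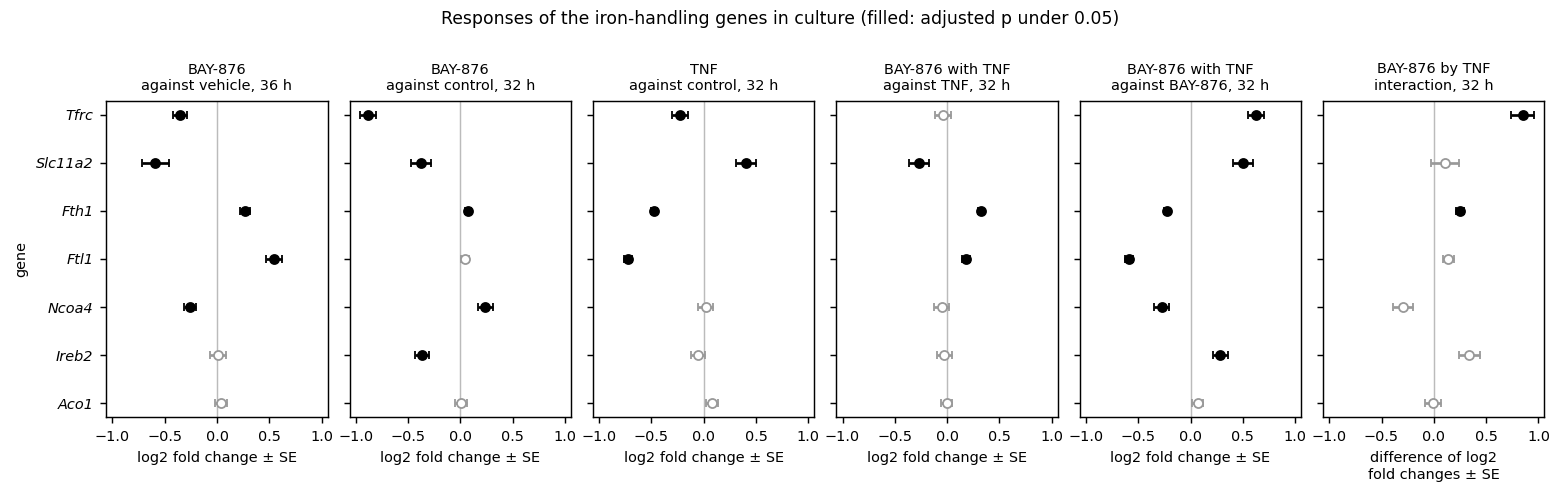
Log2 fold changes with their standard errors (horizontal axes) for 7 iron-handling genes in the 5 pairwise comparisons in culture, and the difference of the BAY-876 responses with and without TNF (right). Filled points passed an adjusted p of 0.05. Tfrc is at -0.89 with BAY-876 against control and at -0.04 with the combination against TNF.

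Among other iron genes at 32 h, Hmox1 rose with BAY-876, and more so with TNF present. It averaged 56.9 ± 3.4 TPM with BAY-876 and TNF, 34.6 ± 1.63 TPM with BAY-876, 27.7 ± 1.36 TPM with TNF and 26.6 ± 0.46 TPM in control cells (SD, n = 3 each). Its log2 fold change was 0.37 ± 0.06 with BAY-876 against control and 1.01 ± 0.06 with the combination against TNF, and the difference of 0.64 ± 0.08 passed the test (limma, adjusted p = 0.00379). Steap3 rose in both comparisons, by 0.75 ± 0.07 against control and 0.63 ± 0.07 against TNF, and its interaction of -0.13 ± 0.10 did not pass. Slc48a1, a haem transporter of the lysosome, fell with BAY-876 by 0.54 ± 0.06 and was 0.75 ± 0.06 higher with the combination than with BAY-876, and Blvrb, a biliverdin reductase, had an interaction of 0.89 ± 0.15. The 3 interactions called in the haem list, of 18 tested, were these of Hmox1, Slc48a1 and Blvrb, all higher. No other iron list had any, where 1.56% of all genes were called in the interaction, 0.736% higher and 0.822% lower. At such a share, lists this short can hold none, and the counts are a description.

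TNF against control lowered 4 of 9 tested uptake genes, against 26.1% of all genes, and raised none, against 19.4% (list median -0.22, against -0.06 over all genes). Scara5, a scavenger receptor that can bind ferritin, fell by 2.65 ± 0.12 on the log2 scale, to 1.77 ± 0.50 TPM with TNF against 16.2 ± 0.40 TPM in control cells, and Steap2, a metalloreductase, fell by 0.55 ± 0.06. Slc25a37, the mitochondrial iron importer mitoferrin-1, and the iron and zinc transporter Slc39a14 fell by 0.32 ± 0.06 and 0.22 ± 0.06. With BAY-876 against control 2 uptake genes rose and 4 fell, where 11.5% of all genes rose and 25.8% fell (median -0.08, against -0.09). With the combination, 2 rose and none fell against TNF, where 10.4% of all genes rose and 23.6% fell (median 0.01, against -0.08). Against BAY-876, 1 rose and 3 fell, where 19.3% of all genes rose and 24.8% fell (median -0.11, against -0.05). The same shares of all genes stand behind the counts of the other lists, which hold from 3 to 24 tested genes, and the counts are given as a description.

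In the storage list of 6 tested genes, BAY-876 against control raised 3 and lowered 1 (median 0.13), among them the iron chaperone genes Pcbp1 (0.26 ± 0.04) and Pcbp2 (0.29 ± 0.04) and the lysosomal channel gene Mcoln1 (0.40 ± 0.10). TNF raised 1 and lowered 3 (median -0.13), with Map1lc3b, which encodes the autophagosome protein LC3B, lower at -0.34 ± 0.08. The combination against TNF raised 2 and lowered 1 (median 0.06), and against BAY-876 it lowered 2 and raised none (median -0.09). Over all genes, BAY-876 raised 11.5% and lowered 25.8%, and TNF raised 19.4% and lowered 26.1%. The combination raised 10.4% and lowered 23.6% of all genes against TNF, and 19.3% and 24.8% against BAY-876. Of the 3 tested export genes the ferroxidase gene Cp fell with TNF by 0.42 ± 0.11 and Flvcr1 rose by 0.38 ± 0.07 (median 0.00). With the combination against TNF both were lower (median -0.26), Cp at -0.79 ± 0.11 and Flvcr1 at -0.26 ± 0.07. With BAY-876 against control none was called (median -0.17), and the combination against BAY-876 raised 1 and lowered 1 (median 0.08).

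Of 6 tested genes of IRP control, BAY-876 against control lowered 3 and raised none (median -0.27). Among them were Fbxl5, whose product marks IRP2 for degradation (-0.28 ± 0.09), and Ciao2a (-0.32 ± 0.06). At 36 h Fbxl5 lay the other way with BAY-876, at 0.29 ± 0.09 without overlap, short of the threshold (limma, adjusted p = 0.0547). At 32 h TNF lowered 1 gene of this list, and the combination lowered 1 against TNF and raised 1 against BAY-876 (medians -0.01, -0.11 and -0.03). Of 18 haem genes, BAY-876 raised 1 and lowered 6 (median -0.13), and TNF raised 1 and lowered 5 (median -0.10). The combination raised 4 and lowered 4 against TNF (median 0.12), and raised 4 and lowered 6 against BAY-876 (median -0.04). Alas1, the rate-limiting gene of haem synthesis outside red cells, rose by 0.29 ± 0.08 with TNF and 0.54 ± 0.08 with the combination against BAY-876. Of 24 genes of iron-sulphur cluster assembly, BAY-876 raised 8 and lowered 3 (median 0.14), and TNF raised 9 and lowered 1 (median 0.08). The combination raised 7 and lowered 4 against TNF (median -0.03) and raised 8 and lowered 3 against BAY-876 (median 0.05). Over all genes, BAY-876 raised 11.5% and lowered 25.8%, and TNF raised 19.4% and lowered 26.1%. The combination raised 10.4% and lowered 23.6% of all genes against TNF, and 19.3% and 24.8% against BAY-876. Nubp2, a scaffold of cytosolic cluster assembly, rose with TNF by 0.82 ± 0.05.

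Marker lists of other cell types moved with the treatments at 32 h as well. The 6 fibroblast markers, of which 2 or 3 reached 1 TPM and none was at 0 throughout, summed to 300 to 342 TPM with BAY-876 and TNF, 829 to 839 TPM with BAY-876, 360 to 423 TPM with TNF and 840 to 863 TPM in control cells. The 17 myeloid markers summed to 22.1 to 25.0 TPM with the combination, 18.8 to 22.5 TPM with BAY-876, 18.2 to 18.4 TPM with TNF and 13.2 to 15.1 TPM in control cells. Of these, Adgre1, Itgam, C1qa, C1qc, Tyrobp, Ms4a7, Aif1 and Cybb were at 0 in every 32 h library. The part of the fibroblast genes in these results was not tested.

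Over the 12 libraries of the 32 h experiment, the genes most like each member by Pearson correlation of log2(TPM + 1), out of 9169 compared, give a description of its pattern. The points share their treatment groups and scaling. The highest were Snai2 (0.986), Rps6ka2 (0.983) and Dync2li1 (0.981) for Fth1, and Slc14a1 (0.991), Sema3a (0.990) and Sned1 (0.988) for Ftl1. For Tfrc they included Txnrd1 (0.925) and Mad1l1 (0.915), and for Ireb2 they were Cpne2 (0.928), Prdx6 (0.922) and Taco1 (0.921). Slc11a2 was matched by Hnrnpu (0.971), Bzw1 (0.961) and Manbal (0.958). Likeness was lower for Aco1, led by Heatr6 (0.914), Tmem267 (0.819) and Ap2m1 (0.816), and for Ncoa4, led by Fkbp2 (0.876), Troap (0.863) and Cables2 (0.854).

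On day 16, sorted OT1 T cells carried more transcripts of the ferritin light chain and Ncoa4 than sorted tumour cells, and fewer of Aco1 and Slc11a2. The calls of Ncoa4 and Slc11a2 were lost in some fits with libraries left out, and Slc11a2 overlapped between the groups. Transcripts of the exporter were also higher in OT1 cells, but the filter made some difference in that gene certain. Before these results, the sort itself needs stating. T cell markers summed to 4623 to 7653 TPM in OT1 libraries and 4.06 to 8.93 TPM in tumour libraries, and LLC markers to 60.6 to 234 TPM in OT1 and 1895 to 2082 TPM in tumour libraries. The 17 myeloid markers, all of which averaged 1 TPM or more in OT1 libraries and 11 of which did in tumour libraries, summed to 1231, 6088, 2868, 3890 and 16716 TPM in OT1 replicates 1 to 5 and to 41.7 to 153 TPM in tumour libraries. None of them was at 0 in all libraries of a group. OT1 replicate 5 thus stood apart, and its T cell markers were the lowest of the 5. The 6 erythroid markers summed to 65.0 to 2782 TPM in OT1 and 10.1 to 899 TPM in tumour libraries. Macrophages are known to express ferroportin and ferritin at high levels, and the part of these transcripts in the results was not tested. Values are therefore also given without OT1 replicates 2, 4 and 5, which held the most myeloid transcripts, a choice made with the data known. The kept OT1 replicates 1 and 3 still held 1231 and 2868 TPM of myeloid markers, far above the tumour libraries. Those values are therefore not free of myeloid transcripts.

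The exporter gene Slc40a1 had 7.28, 13.9, 12.2, 8.88 and 26.1 TPM in OT1 libraries, against 0.44, 0.17, 0.08, 0.41 and 0.18 TPM in tumour libraries. Every OT1 library was far above every tumour library, and OT1 replicate 5 was highest and replicate 1 lowest, as they were for myeloid markers. Slc40a1 passed the filter through the OT1 libraries alone, so some difference was bound to appear. For that reason the test of this gene cannot decide whether the groups differ, and the values are given as a description. On the log2(TPM + 1) scale, which understates changes from levels this low, the log2 fold change was 3.43 ± 0.27. The means of 13.7 and 0.25 TPM stood in a ratio of 54.0. Without the 3 OT1 libraries the log2 fold change was 3.07 ± 0.21.

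The light chain gene Ftl1 had 1477, 3177, 2826, 2120 and 5771 TPM in OT1 libraries and 1413, 1338, 1246, 1344 and 1284 TPM in tumour libraries. The lowest OT1 library lay just above the highest tumour library, and OT1 libraries spread widely while tumour libraries did not. The log2 fold change was 1.06 ± 0.28 (limma, adjusted p = 0.00509), and 0.63 ± 0.21 (adjusted p = 0.0229) without the 3 OT1 libraries, over 1.5 times smaller. The retrogene Ftl1-ps1 averaged 182 TPM in OT1 and 82.9 TPM in tumour libraries.

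The heavy chain gene Fth1 had 2183, 3975, 3470, 2757 and 7629 TPM in OT1 libraries and 4336, 5112, 5102, 4182 and 4087 TPM in tumour libraries. OT1 replicate 5 was above all tumour libraries and the other 4 OT1 libraries below all of them. The log2 fold change of -0.32 ± 0.27 did not pass (limma, adjusted p = 0.305), while without OT1 replicate 5 it was -0.59 ± 0.16 (adjusted p = 0.00556) and without replicates 2, 4 and 5 it was -0.72 ± 0.18 (adjusted p = 0.00617). A single library thus decided whether Fth1 passed.

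The balance of the ferritin chains varied less than their levels. Fth1 made up 56.8 ± 1.77% of the summed Fth1 and Ftl1 TPM in OT1 libraries, with a range of 55.1 to 59.6%, and 77.4 ± 2.28% in tumour libraries, with a range of 75.4 to 80.4% (SD, n = 5 each). The difference of -20.6 percentage points had p = 0.00794 by an exact two-sided permutation test, the smallest that 5 against 5 allows, and an adjusted value of 0.00794 over the 2 shares tested. Paired by replicate number, which the labels do not call for, an exact test gave p = 0.0625, the smallest it allows. Without OT1 replicates 2, 4 and 5 the difference was -20.0 points, where an exact test cannot go below 0.0952. In 32 h LLC cells in culture the share was 71.0 to 76.3% by group, in a table normalized separately, and no test was made across the tables.

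Ncoa4 had 44.7, 55.5, 48.9, 53.3 and 92.0 TPM in OT1 libraries and 40.7, 36.0, 32.5, 39.7 and 41.5 TPM in tumour libraries, without overlap and with OT1 replicate 5 far above the rest. The log2 fold change was 0.57 ± 0.17 (limma, adjusted p = 0.00977), and 0.29 ± 0.12 without the 3 OT1 libraries, no longer past the threshold (adjusted p = 0.0566).

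Of the uptake genes, Slc11a2 had 16.8, 17.8, 17.9, 15.4 and 26.1 TPM in OT1 libraries and 25.7, 33.2, 30.0, 17.3 and 36.8 TPM in tumour libraries. Tumour replicate 4 lay among the OT1 libraries and OT1 replicate 5 among the tumour libraries. The log2 fold change was -0.56 ± 0.20 (limma, adjusted p = 0.0236), and -0.65 ± 0.25 (adjusted p = 0.0446) without the 3 OT1 libraries. Leaving out tumour replicate 2, 3 or 5 or OT1 replicate 4 ended the call (adjusted p 0.0507 to 0.0610). Tfrc had 35.6, 39.9, 26.3, 70.7 and 31.2 TPM in OT1 libraries and 46.7, 62.6, 38.9, 57.3 and 101 TPM in tumour libraries, and the groups overlapped. Its log2 fold change of -0.59 ± 0.28 did not pass (adjusted p = 0.0816). It did pass without OT1 replicate 4 (-0.80, adjusted p = 0.0122), without tumour replicate 3 (-0.73, adjusted p = 0.0416) and without OT1 replicates 2, 4 and 5 (-0.90, adjusted p = 0.0288). OT1 replicate 4, the highest in Tfrc, was also the highest in erythroid markers, with 2782 TPM, and erythroid precursors are known for high transferrin receptor levels. Its part in the result was not tested.

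The sensor genes stood in another proportion in OT1 cells. Aco1 had 15.6, 16.0, 15.9, 17.3 and 21.4 TPM in OT1 libraries and 36.3, 33.8, 40.0, 33.5 and 39.2 TPM in tumour libraries, far apart. Its log2 fold change was -1.05 ± 0.10 (limma, adjusted p = 2.58e-06), and -1.16 ± 0.11 without the 3 OT1 libraries. Ireb2 had 17.9, 14.5, 12.7, 14.6 and 14.9 TPM in OT1 libraries and 12.6, 14.0, 14.2, 14.3 and 15.9 TPM in tumour libraries, with a log2 fold change of 0.06 ± 0.11 (adjusted p = 0.622), and 0.08 ± 0.16 (adjusted p = 0.653) without the 3 OT1 libraries. Of the summed Ireb2 and Aco1 TPM, Ireb2 held 46.4 ± 4.58% in OT1 libraries and 28.01 ± 1.88% in tumour libraries (SD, n = 5 each), a difference of 18.4 percentage points (exact two-sided permutation p = 0.00794, again the smallest possible). Paired by replicate number, the exact test again gave p = 0.0625, the smallest it allows. Without OT1 replicates 2, 4 and 5 the difference was 20.9 points.

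**Figure D4:**
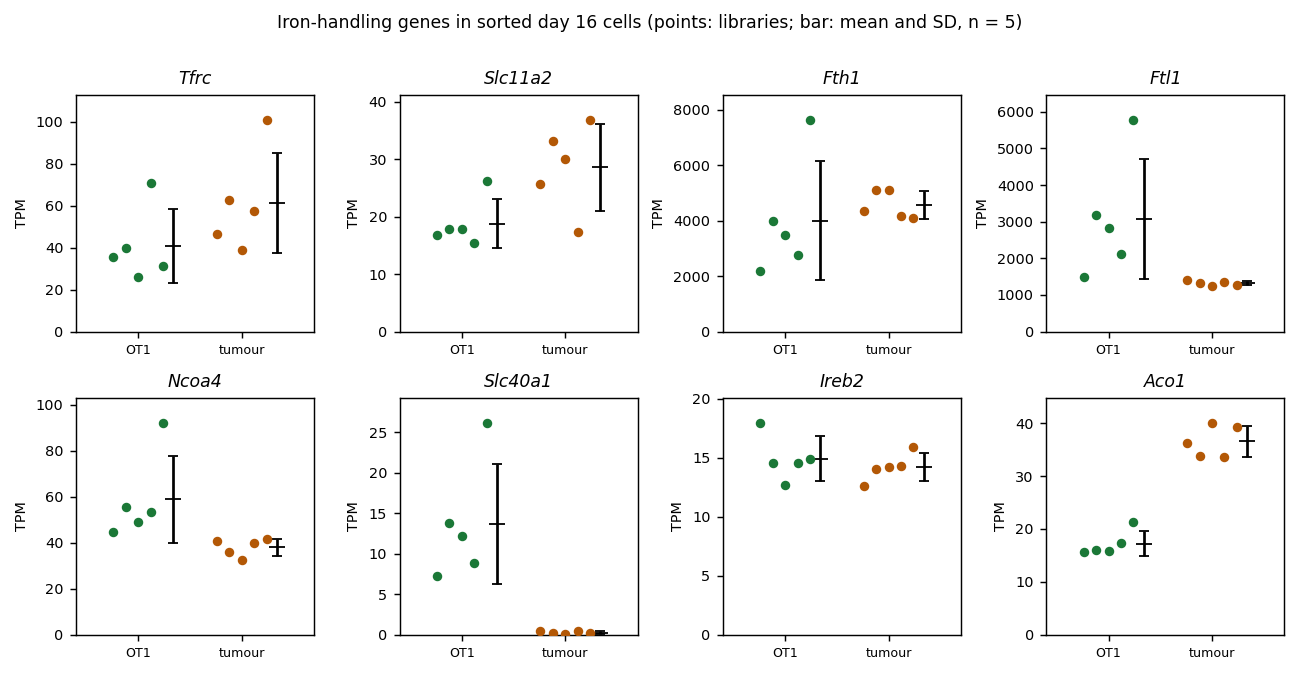
TPM (vertical axes, from 0) of the 8 iron-handling genes in OT1 T cells (left in each panel) and tumour cells (right) sorted on day 16, with 1 point per library, replicates 1 to 5 from left to right, and the mean and SD beside them. Slc40a1 is near 0 in tumour libraries, Aco1 is lower in all OT1 libraries, and OT1 replicate 5 is the highest of its group in Fth1, Ftl1, Ncoa4, Slc40a1, Slc11a2 and Aco1.

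In all, 5 of the 8 members were called on day 16, against 74.5% of 13511 genes, with 3 higher (background 30.1%) and 2 lower (44.4%). The 3 higher include Slc40a1, whose difference followed from the filter, so its call is no evidence of a difference. A count of 5 in 8 lies below that background. The members' median absolute log2 fold change was 0.58, against 0.77 over all genes tested.

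**Figure D5:**
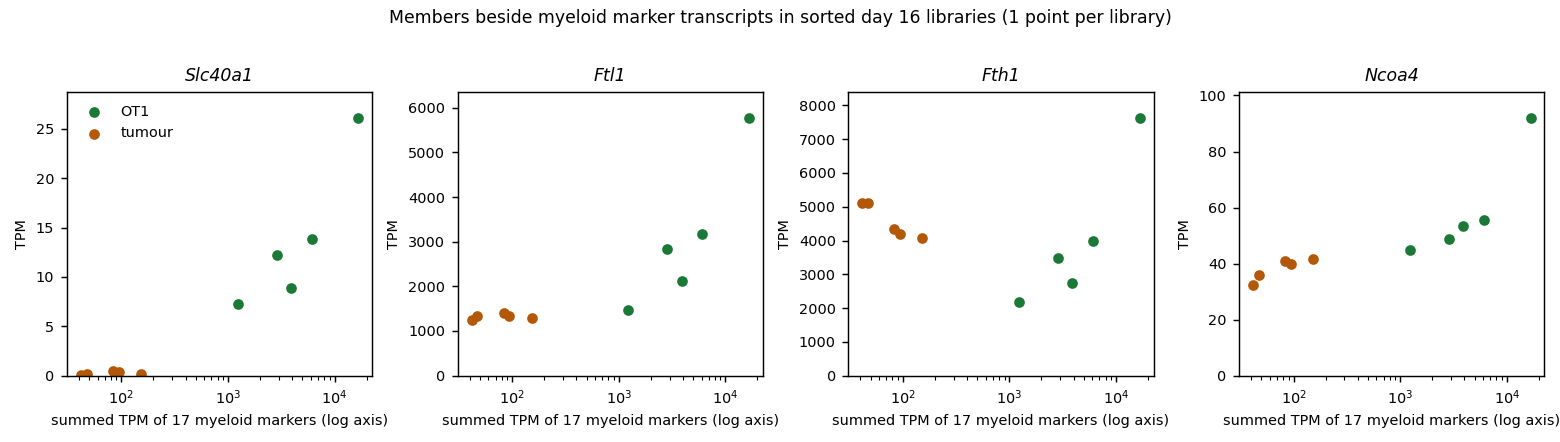
TPM of Slc40a1, Ftl1, Fth1 and Ncoa4 (vertical axes, from 0) against the summed TPM of 17 myeloid markers (horizontal log axes), 1 point per day 16 library, OT1 in green and tumour in orange. OT1 replicate 5, with 16716 TPM of myeloid markers, is highest in all 4 genes, and OT1 replicate 1, with 1231 TPM, is the lowest OT1 library in all 4.

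Many other iron genes differed between the cell types, as did most genes. Of all genes, 30.1% were higher and 44.4% lower in OT1 cells, and the counts of the lists below are near or under the 74.5% called in all. Of 10 tested uptake genes 7 were lower in OT1 cells and 1 higher (median log2 fold change -1.14, against -0.21 over all genes). The metalloreductase genes Steap1 and Steap3 were lower, with log2 fold changes of -3.87 ± 0.38 and -2.89 ± 0.18, at 6.21 ± 4.17 and 10.1 ± 2.74 TPM in OT1 libraries against 89.3 ± 12.8 and 80.5 ± 15.7 TPM in tumour libraries (SD, n = 5 each). Slc39a14 and Slc25a37 were lower as well (-1.36 ± 0.15 and -1.27 ± 0.10). Transferrin itself, Trf, was higher by 4.15 ± 0.89, but with libraries that overlapped and an SD of 154 TPM around a mean of 103 TPM in OT1 libraries, and by 2.96 ± 0.86 without OT1 replicates 2, 4 and 5. Of 3 tested export genes 2 were lower (median -1.20), Cp at -3.63 ± 0.39 and Flvcr1 at -1.20 ± 0.10. Of 7 storage genes 2 were higher, Herc2, which encodes a ligase that acts on NCOA4 (0.70 ± 0.15), and Map1lc3b (0.38 ± 0.10), and 2 were lower (median 0.09).

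Both haem oxygenase genes were higher in OT1 cells, Hmox2 by 1.24 ± 0.10 and Hmox1 by 1.76 ± 0.54, the second at 469 ± 225 TPM in OT1 and 160 ± 103 TPM in tumour libraries with overlap. Macrophages are known to express Hmox1, and their part in this result was not tested. Without OT1 replicates 2, 4 and 5 the log2 fold change of Hmox1 was 1.88 ± 0.78. It was no smaller, but its standard error was larger and it no longer passed the threshold (limma, adjusted p = 0.0561). In that fit Hmox2 was at 1.16 ± 0.13 (limma, adjusted p = 3.87e-05). In the haem list of 18, 3 were higher and 5 lower (median -0.16). Of 7 genes of IRP control 3 were higher and 2 lower (median 0.07), with Fbxl5 higher by 0.62 ± 0.21 (0.29 ± 0.13 without OT1 replicates 2, 4 and 5, adjusted p = 0.0641) and Cul1 lower at -0.67 ± 0.09. Of 24 genes of iron-sulphur cluster assembly 4 were higher and 10 lower (median -0.17), with the co-chaperone gene Hscb higher by 1.44 ± 0.12 and its partner Hspa9 lower at -1.73 ± 0.13. Without OT1 replicates 2, 4 and 5, 9410 of 13511 genes were called (69.6%), 3705 higher and 5705 lower. The counts higher and lower in that fit were 1 and 8 of the 10 uptake genes and 0 and 2 of the 3 export genes. They were 2 and 1 of the 7 storage genes and 2 and 7 of the 18 haem genes. They were 2 and 2 of the 7 genes of IRP control and 3 and 10 of the 24 iron-sulphur genes.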

How the data were processed

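RNA was measured by RNA-seq in 28 mouse libraries. Tools listed in the submitters' processing notes are DESeq2 1.34.0, STAR 2.6.1d and Salmon 0.14.1 (36 h) or 0.13.1 (32 h and day 16), with the build mm10 and no role for any of them. The deposited 36 h table holds normalized counts, a signal the authors made with DESeq2 per its name, and whole reads could not be recovered from it. For 32 h and day 16 the authors deposited TPM, scaled within each library. The authors' deposited comparison tables give log2 fold changes and adjusted p-values. A further 24 columns of the 32 h table match no labelled sample and were left out.

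Values were taken to log2(value + 1) and tested with limma 3.58.1 (R 4.3.3) with a mean-variance trend, each table on its own, the 12 libraries of the 32 h experiment in 1 fit. The filter asked for 10 normalized counts or 1 TPM in at least 3 libraries, 5 on day 16. Benjamini-Hochberg adjustment ran over all genes tested, with a threshold of 0.05. The method was tested on simulated data with independent normal noise in each library. Such data cannot speak to shared deviations between libraries or to a mixture of cell types. Shares were compared by exact permutation with scipy 1.17.1. Errors of log2 fold changes are standard errors, and ± beside levels is the SD.

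The 8 members, the 6 pathway lists (86 names, 2 absent from the tables) and the 7 marker lists were chosen with earlier results of these data known. Named are all members, in each list and comparison up to 2 called genes with the largest log2 fold change averaging 5 TPM or 50 normalized counts or more, 9 set genes (Hmox1, Fbxl5, Slc39a14, Slc25a37, Steap3, Flvcr1, Pcbp1, Pcbp2 and Alas1), and for each member the 3 most correlated genes with a mean of at least 5 TPM. Of the genes so named, 2 are not reported here. UTRs and coordinates come from GENCODE on GRCm38. The settings varied were the pseudocount (0.1 TPM or 10 counts), the filter (none, or a stricter one of 5 TPM or 100 counts on average), quantile normalization, leaving out each library, a replicate block, fits of the libraries compared alone, and day 16 without 3 OT1 libraries. Replicate libraries correlated at 0.914 to 0.989, and no library was a copy of another.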

Additional observations from a re-analysis of the deposited data

Results flagged for a closer look

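Among OT1 libraries, Slc11a2 in replicate 5 (26.1 TPM) and Ncoa4 in replicate 5 (92.0 TPM) lay far above the other 4 by Dixon's test, out of 20 groups of values tested, where chance flags about 1 in 20 groups. Replicate 5 is the library with the most myeloid transcripts, and their part in the result was not tested. The response to BAY-876 differed with and without TNF for Tfrc (difference of log2 fold changes 0.85, limma, adjusted p = 0.0038) and for Fth1 (0.25, adjusted p = 0.00835). Ncoa4 moved in opposite directions with BAY-876 in the 2 culture experiments, with a log2 fold change of -0.26 at 36 h and 0.24 at 32 h, and no library overlapped its comparison group in either. The tables differ in unit and the exposures differ in length and design, and this difference was not tested.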

How the results depend on the processing

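Of 828 values of a member under an alternative, 750 kept their direction and their side of the threshold, 48 lost a call, 5 gained one and 25 changed sign, the last all in values that passed no test. With 1 library left out, members called ranged from 2 to 5 at 36 h, from 3 (without control replicate 3) to 5 with BAY-876 against control and from 2 to 2 in the interaction, where no filter left 1, and genes called ranged from 4.97 to 18.5% of those tested at 36 h, low without BAY-876 replicate 3 or any 1 vehicle library, and from 0.86 to 1.97% in the interaction. Changed signs under quantile normalization were -0.021 for Ftl1 with BAY-876 against control, 0.0196 for Ireb2 with TNF against control, and, with the combination against TNF, 0.026 for Tfrc, 0.063 for Ireb2, 0.069 for Aco1 and 0.015 for Ncoa4. With 1 library left out, ranges that crossed 0 were -0.038 to 0.082 for Ireb2 at 36 h, -0.037 to 0.0615 for Aco1 with BAY-876 against control, -0.0175 to 0.048 for Ncoa4 with TNF against control, -0.086 to 0.0376 for Tfrc, -0.079 to 0.018 for Ireb2, -0.024 to 0.0203 for Aco1 and -0.12 to 0.0108 for Ncoa4 with the combination against TNF, -0.067 to 0.031 for Aco1 in the interaction, and -0.0027 to 0.11 for Ireb2 on day 16. The replicate numbers recur across groups, but libraries of 1 number correlated in their deviations from the group means at -0.192 to 0.12, so they were not treated as paired. On day 16 all 5 such correlations were above 0 (0.0453 to 0.111), 7 of the 10 libraries correlated best with their own number, and erythroid sums were highest in replicate 4 and lowest in replicate 2 of both groups, a hint of pairing from the data, not from the design. With the block on day 16, Slc11a2 stayed called (adjusted p = 0.00452), lower in OT1 in 5 of 5 numbers. With a replicate block, 12.1% of genes were called at 36 h and 1.36% in the interaction, and the call of Slc11a2 with the combination against TNF was lost (adjusted p = 0.0528). As a paired exact test over 5 numbers, which cannot go below 0.0625, the share differences were -20.6 and 18.4 points with p = 0.0625, and without OT1 replicates 2, 4 and 5, where the smallest p is 0.0952, they were -20.0 and 20.9. With 1 library left out they ranged from -21.3 to -19.9 and from 16.7 to 19.8 points. Why each value moved was not tested. Depth is unknown for TPM, so no counting interval is given.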
